A study of Mus musculus with 23 samples.

Results

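TELP, a tailing, extension, ligation and PCR scheme for making sequencing libraries from small amounts of nucleic acid, was set against a standard RNA-seq library on day 0 preadipocytes. Both libraries came from C3H10T1/2, a mouse mesenchymal stem cell line of the C3H strain, with no genetic change named in the labels. The cells had been seeded at 70% confluency, treated with 8.3 nM BMP7 for 3 days and collected at day 0, before the adipogenic inducers (dexamethasone, IBMX, insulin, rosiglitazone and T3) were added. Total RNA was extracted with Trizol and treated with DNase I. The standard library was made by a sequencing company from mRNA captured on oligo(dT) beads, broken to about 200 bases and copied with random hexamers. The TELP library carries the suffix N9, which the labels do not spell out. Of the 23 samples in the series, 17 are ChIP libraries and 6 are RNA libraries, and 2 of the 6 are used here, with 2 more from day 7 cells set beside them. Each group is 1 library, nothing says whether both libraries drew on the same RNA, and no difference below has a replicate check or a test.

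The table held 24029 gene symbols. A gene was kept when its mean over both day 0 libraries was at least 1 RPKM (reads scaled to transcript length and to library depth), which left 11277 genes. Of these, 181 were small noncoding RNA models, out of 1198 in the table, and were counted apart from the other 11096. A difference is log2((TELP RPKM + 1)/(standard RPKM + 1)), so a positive value means higher in the TELP library, and the size threshold used for counts was an absolute difference of 1. Adding 1 RPKM understates the change of low genes.

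RNA sequencing reads transcripts as short fragments, and what a fragment is worth depends on the length of its transcript. Long transcripts give many possible fragments and short ones give few, and a transcript of under 100 bases, such as a box C/D small nucleolar RNA (snoRNA, a guide for ribosomal RNA modification) or a microRNA hairpin, can yield only a fragment much shorter than most in the library. Replication-dependent histone mRNAs end in a stem loop in place of a poly(A) tail, so the way RNA is captured or primed bears on how much of them a library holds.

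The TELP library listed 11306 genes at 1 RPKM or more and the standard library 11129. Genes listed at exactly 0 numbered 7201 in the TELP library and 8621 in the standard library. RPKM summed to 409303 and 345750, and small noncoding RNA models took 17.5% of the TELP sum against 9.53% of the standard sum. Depth was not given, so it was worked out from the small RNA values described further on: about 22700000 reads for TELP and 14400000 for the standard library. At that depth 1 RPKM of a 2 kb transcript stood for 40.8 reads in the TELP library and 25.9 in the standard library. For markers of other cell types that the culture could hold, 1 of 12 measured macrophage and leukocyte genes was kept (Cd14, 2.88 RPKM in TELP and 1.91 in standard), and Ptprc, Itgam and Cd3e were at or near 0 in both. That list summed to 3.83 RPKM in TELP and 3.91 RPKM in standard.

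Gene levels in the 2 libraries lay close together. Among the 11096 genes that were not small noncoding RNAs the median difference was 0.01 with an SD of 0.39 across genes, and 10061 of them (90.7%) differed by less than 0.5. Pearson's r across these genes was 0.971 and Spearman's rho 0.973 on the log2(RPKM + 1) scale, a description over genes that share both libraries. Higher in TELP by at least 1 were 161 genes (1.45%), and lower were 21 genes (0.189%), together 182 genes (1.64%). The split was therefore 88.5% higher, and it fell to 70.9% (83 higher, 34 lower) when both libraries were first scaled to the same RPKM total, which moved the median of all genes to -0.21. With equal totals over genes that are not small noncoding RNAs it was 82.4% (122 higher, 26 lower), with a median of -0.09. Of the 161 higher genes, 124 were at 1 RPKM or more in both libraries, but of the 21 lower genes only 5 were. Just inside the threshold stood Timm17b, a subunit of the mitochondrial inner membrane translocase, at 1.01, and just outside it Cox7c, a subunit of cytochrome c oxidase, at 1.00.

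**Figure D1:**
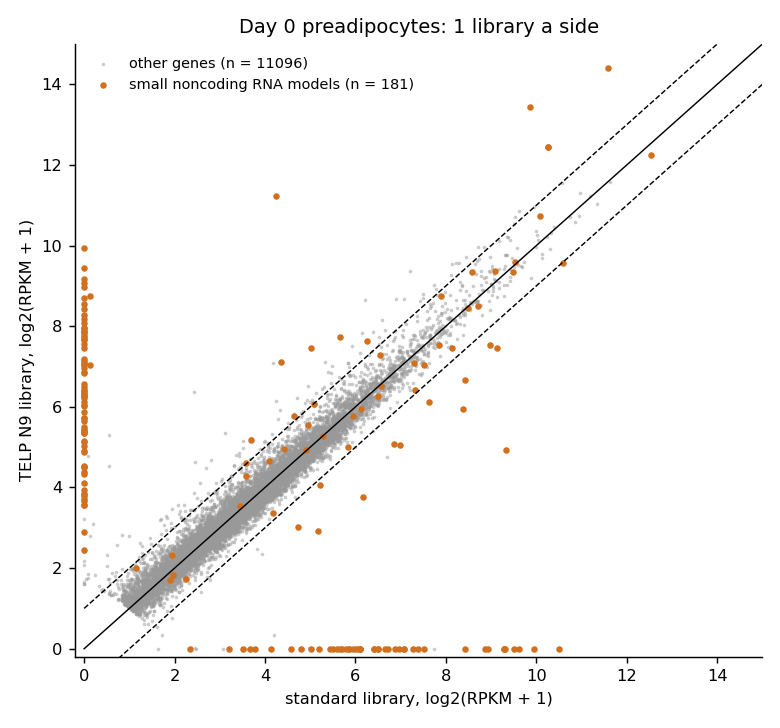
Level of each kept gene in the standard library (x axis) and the TELP N9 library (y axis) at day 0, both as log2(RPKM + 1). Grey points are the 11096 genes that are not small noncoding RNAs, orange points the 181 small noncoding RNA models, the solid line marks equality and the dashed lines a difference of 1. Grey points follow the line, and many orange points lie on an axis because 1 of the libraries lists them at 0.

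Messenger RNAs of ribosomal proteins made up the largest of the listed groups among the higher genes. Of 33 measured 40S subunit genes kept, 10 were higher by at least 1, none was lower, 30 differences were positive and the median was 0.70. Of 49 kept 60S subunit genes, 10 were higher, none was lower, 43 were positive and the median was 0.48. Those shares compare with 1.45% of all genes. Both medians stayed positive under every scaling tried, but with equal totals the counts of higher genes were 4 for the 40S and 6 for the 60S list, and quantile normalization left 6 for the 40S list. Summed over the list, 60S genes came to 22415 RPKM in TELP and 14273 RPKM in standard, a ratio of 1.57, and 40S genes to 18857 and 11202 RPKM, a ratio of 1.68.

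Single ribosomal protein genes covered a wide range. Rps27, a 40S protein, was at 4.39 RPKM in standard and 81.9 RPKM in TELP, a difference of 3.94. Rplp2, an acidic protein of the 60S stalk, was at 147 RPKM in standard and 665 RPKM in TELP (2.17). Rpl36, a 60S protein, was at 118 RPKM and 404 RPKM (1.76), and Rps21, a 40S protein, at 135 RPKM and 404 RPKM (1.58). In each of these the TELP library held the higher value. Rpl41, which encodes the shortest ribosomal protein and had the highest 60S level, stood at 1520.3 RPKM in standard and 2980.5 RPKM in TELP and fell just short of the threshold at 0.97. Other members did not share the shift. Rps4x was at 766 RPKM in standard and 767 RPKM in TELP, and Rpl7a was lower in TELP, at 173 RPKM in standard and 110 RPKM in TELP (-0.64). Ribosomal protein genes have many processed pseudogenes, so reads may be split among copies, and levels of single members are uncertain. Rps27 is a case in point: its retrotransposed copy Rps27rt was at 223 RPKM in standard and 433 RPKM in TELP, and the sum of both was 228 and 515 RPKM (1.18). Rpl26 was listed at 0.00046 RPKM in standard, below the 0.00350 RPKM that 1 read of a 20 kb transcript is worth, and at 32.5 RPKM in TELP. Gm15772, a transcribed pseudogene for which RefSeq gives Rpl26 as another name, was at 409 RPKM in standard and 392 RPKM in TELP, and the difference of the sum was 0.05, so the level of Rpl26, 1 of the 10 higher 60S genes, is uncertain.

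Translation factors work with ribosomes without being part of them. None of 34 kept genes of this list passed the threshold in either direction, which is near the 1.64% over all genes. Of their differences 15 were positive and 19 negative, and the median was -0.02.

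Nuclear-encoded subunits of the respiratory chain lay in the same direction as the ribosomal proteins. Of 37 complex I genes, 4 were higher by at least 1 and none lower, with a median of 0.40. Of 38 genes of complexes III to V, 5 were higher and none lower, with a median of 0.43. Over all genes 1.45% were higher. Both medians kept their sign under every scaling, but with equal totals no complex I gene was higher by 1 or more, against 4 for complexes III to V, and 2 were with equal totals over genes that are not small noncoding RNAs. Atp5k, a small membrane subunit of the ATP synthase, was at 69.5 RPKM in standard and 225 RPKM in TELP (1.68). Atp5e, its epsilon subunit, was at 95.8 and 283 RPKM (1.55). Among complex I genes, Ndufs6 was at 28.4 RPKM in standard and 66.9 RPKM in TELP (1.21), and Ndufc1 at 23.8 and 55.7 RPKM (1.19). Subunits with larger genes could lie on the other side: Ndufs1, the largest subunit of complex I, was at 29.0 RPKM in standard and 19.9 RPKM in TELP (-0.52), over a gene that spans 33.2 kb.

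Among 25 kept genes for mitochondrial import and membrane proteins, 5 were higher (3 with equal totals) and none lower, with a median of 0.24. Romo1, a small inner membrane protein linked to reactive oxygen species, was at 17.1 RPKM in standard and 134 RPKM in TELP (2.90), and Tomm6, a small subunit of the outer membrane translocase, at 42.9 and 114 RPKM (1.39). Of 76 mitochondrial ribosomal protein genes, 1 was higher, Mrpl14 at 27.5 RPKM in standard and 58.7 RPKM in TELP (1.07), which fell under the threshold with equal totals (0.83); the list's median of 0.16 turned to -0.06 when totals were made equal. The proteasome gave 1 of 38, Psmb5, a catalytic subunit, at 25.2 and 74.0 RPKM (1.52). RNA polymerase II gave 1 of 13, the short subunit gene Polr2k at 10.5 and 30.5 RPKM (1.46). The medians of both lists, 0.09 and 0.17, also changed sign with equal totals (to -0.15 and -0.05). Over all genes 1.45% were higher in TELP by at least 1. A single higher gene therefore does not set the mitochondrial ribosomal protein, proteasome or RNA polymerase II list apart.

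Sm and LSm proteins form the ring that binds spliceosomal and decay-related RNAs. Of 21 kept genes in this list with their partner proteins, 4 were higher and none lower, with a median of 0.34 that kept its sign under every scaling. Lsm5 was at 4.44 RPKM in standard and 23.7 RPKM in TELP (2.18), and Snrpg at 59.8 and 182 RPKM (1.59). Among 32 short, abundant cytoplasmic protein genes only Tmsb10, which encodes the actin-binding peptide thymosin beta 10, passed. It was at 281 RPKM in standard and 741 RPKM in TELP (1.40). With 1.45% higher over all genes, 1 in a list of this size does not set the list apart. Fth1, the ferritin heavy chain, was at 2332 RPKM in standard and 2396 RPKM in TELP, a difference of 0.04. A high level therefore did not go with a difference in every short gene.

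Histones gave a further group. Of 35 kept replication-dependent histone genes, 6 were higher by at least 1 and 1 was lower, against 1.45% and 0.189% of all genes. Of their differences 33 were positive and 2 negative, and the median was 0.57, positive under every scaling. The count of higher histones was less stable: 1 with equal totals, 3 with equal totals over genes that are not small noncoding RNAs, and 11 with a pseudocount of 0.1 RPKM. Hist2h2ac was at a low level, 3.66 RPKM in standard and 9.64 RPKM in TELP (1.19), as was Hist2h2ab, at 0.992 and 5.99 RPKM (1.81). Not every level was low: the highest in the list was 84.3 RPKM in standard and 52.6 RPKM in TELP. The gene at 84.3 RPKM in standard was therefore lower in TELP, though by less than 1. The only member lower by at least 1, Hist1h2ao, was at 4.17 RPKM in standard and 9.9e-06 RPKM in TELP. Since clustered H2A genes are near copies of one another, the levels of single members are uncertain. The replacement histones, whose mRNAs carry a poly(A) tail, had positive differences in 11 of 11 genes with a median of 0.17, and none passed the threshold; that median turned to -0.06 with equal totals. The list of replication and mitosis genes, which tracks how many cells cycle, had a median of 0.04 over 40 genes, none past the threshold. That median changed sign with either form of equal totals, with quantile normalization and with a filter at a mean of 5 RPKM. With 1.64% past the threshold over all genes, 0 in either of these lists is near that share.

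**Figure D2:**
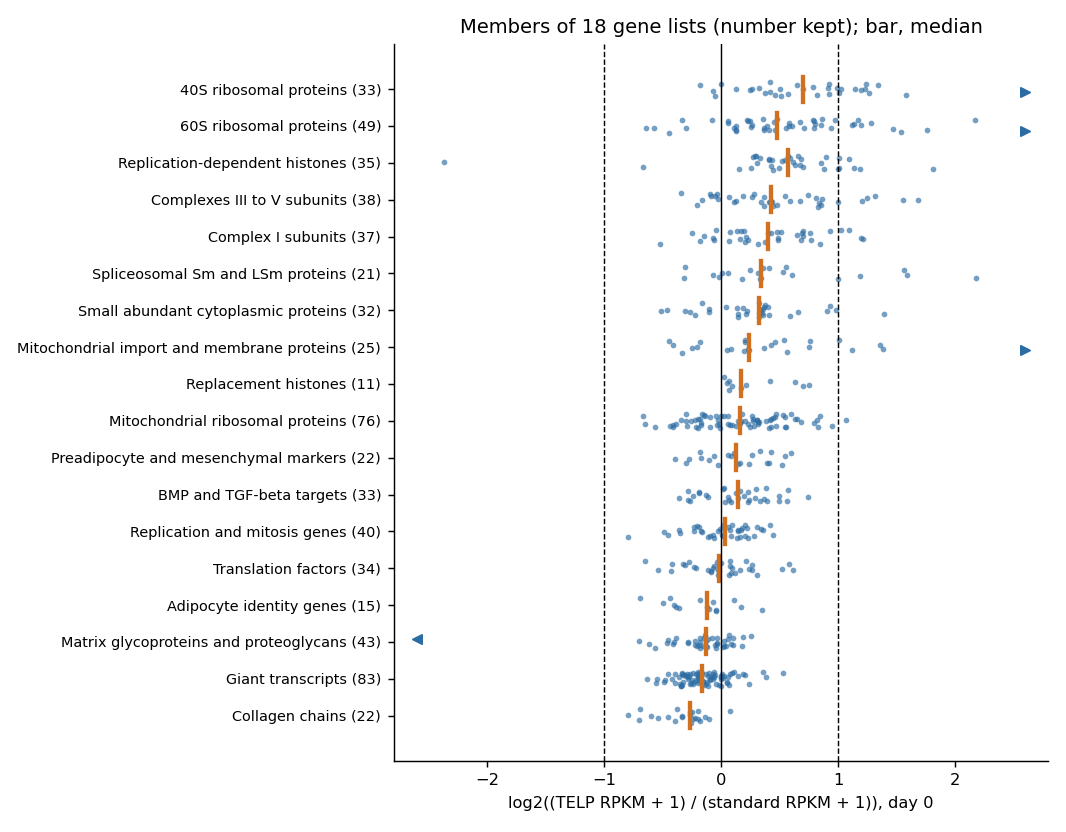
Difference between the TELP N9 and standard libraries at day 0, as log2((TELP RPKM + 1)/(standard RPKM + 1)), for members of 18 gene lists, 1 point a gene. Orange bars mark list medians, dashed lines a difference of 1, and triangles members that lie beyond the axis. Ribosomal proteins, histones and respiratory chain subunits lie mostly to the right of 0, and collagens and giant transcripts mostly to the left.

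Genes with short spans were higher more often than genes with long spans. Span here is the length of a gene in the genome with introns, from the RefSeq table of GRCm38.p6, because transcript lengths are not in the files. Of 258 protein-coding genes spanning under 2 kb, 30 (11.6%) were higher in TELP by at least 1 and the median was 0.41. In genes of 2 to 5 kb the share was 4.16% (40 of 961) and the median 0.20, and in those of 5 to 10 kb 21 of 1359 were higher with a median of 0.10. Genes of 30 to 100 kb had a median of -0.05, and of 1357 genes of 100 kb or more none was higher, 1 was lower, and the median was -0.09. Leaving out ribosomal protein genes, 22 of 245 genes under 2 kb were higher and their median was 0.39. Across 10699 genes, Pearson's r between difference and log span was -0.277 and Spearman's rho -0.293, a description only. The medians of the shortest and longest classes lay 0.49 apart, and 0.15 apart with no filter on level. Median RPKM was similar in these classes, 11.5 under 2 kb and 9.20 at 100 kb or more.

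**Figure D3:**
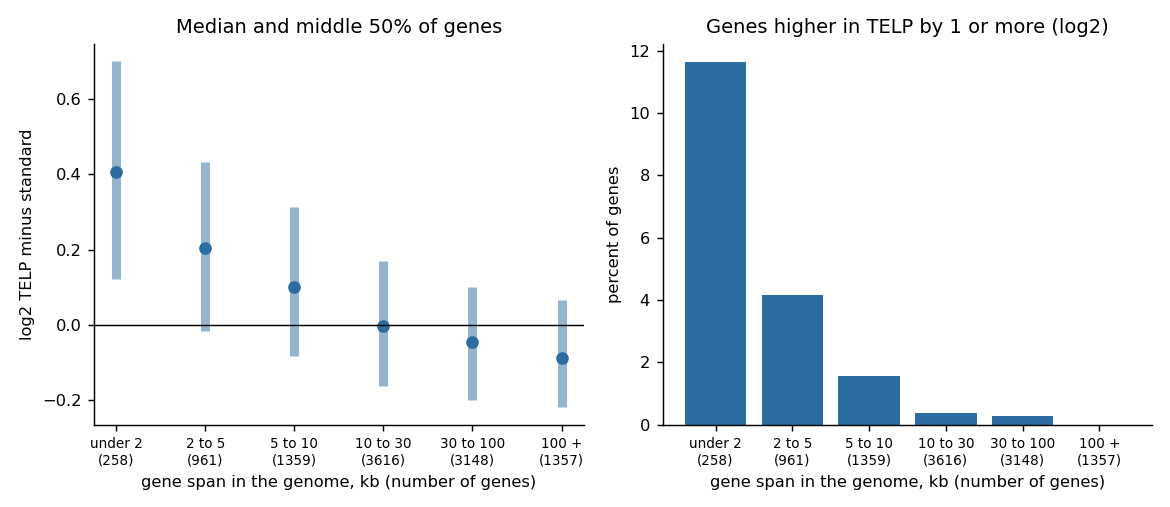
Protein-coding genes grouped by gene span in kb (x axis, number of genes in brackets). The left panel gives the median log2 difference, TELP minus standard, with the middle 50% of genes as a bar; the right panel gives the percent of genes higher in TELP by at least 1. The median goes from 0.41 under 2 kb to -0.09 at 100 kb or more.

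Giant transcripts and collagens lay on the other side. Among 83 kept genes listed for very long transcripts or spans, none passed the threshold, 66 differences were negative and the median was -0.17. All but 1 of 22 kept collagen chain genes were negative, none passed the threshold and the median was -0.26. Both medians were negative under every scaling. Over all genes 1.64% passed the threshold in either direction, so 0 in lists of this size is near that share. Col1a1, a chain of type I collagen, was at 1114 RPKM in standard and 885 RPKM in TELP (-0.33), and Col3a1, of type III collagen, at 945 and 584 RPKM (-0.69). The lowest collagen value was that of Col5a2, at 120 RPKM in standard and 68.5 RPKM in TELP (-0.79), and the single positive value that of Col8a1, at 1.05 and 1.15 RPKM (0.07). Summed, collagens came to 4649 RPKM in standard and 3482 RPKM in TELP, a ratio of 0.749. Fn1, which encodes fibronectin, was at 842 and 769 RPKM (-0.13).

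Further lists hold genes that describe the cells themselves. None of 22 preadipocyte and mesenchymal markers, 15 adipocyte identity genes, 17 early adipogenic regulators or 33 BMP and TGF-beta genes passed the threshold. Of the 11096 genes that were not small noncoding RNAs 1.64% passed it, so 0 in lists this short is near that share. In the order given, 14, 3, 12 and 24 differences were positive, with medians of 0.13, -0.12, 0.08 and 0.15. The positive medians turned negative with equal totals (-0.10, -0.14 and -0.05). Pdgfra, a receptor that marks adipocyte progenitors, was at 80.8 RPKM in standard and 66.6 RPKM in TELP, and Dlk1, a preadipocyte factor, at 5.601 and 7.77 RPKM. Pparg, the main adipogenic transcription factor, was at 27.0 and 20.2 RPKM (-0.40), and Fabp4, a fatty acid carrier of adipocytes, at 6.99 and 3.93 RPKM (-0.70). Both libraries thus held Pparg at a moderate level and Fabp4 at a low level. Cebpb, an early adipogenic factor encoded by a gene of 1.52 kb, was at 8.72 RPKM in standard and 16.1 RPKM in TELP, 0.81 on the difference scale. Id3, a target of BMP signalling with a gene of 1.57 kb, was at 68.5 and 115.6 RPKM (0.75), whereas Id1, another such target of 1.16 kb, was at 58.5 and 53.2 RPKM (-0.13). Among genes often used for scaling, Actb was at 1334 RPKM in standard and 1413 RPKM in TELP (0.08) and Gapdh at 85.6 and 85.0 RPKM (-0.01); the first turned negative with equal totals (-0.16) and with quantile normalization (-0.34).

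A gene of the immune list stood apart. Il6, which encodes the cytokine interleukin 6, was at 0.472 RPKM in standard and 38.6 RPKM in TELP, a difference of 4.75. It was the only 1 of 27 kept chemokine, cytokine and interferon genes to pass the threshold, which 1.64% of all genes did. Ccl2, a chemokine often raised with it, was at 10.1 RPKM in standard and 10.2 RPKM in TELP, and Cxcl1, another, at 5.87 and 3.84 RPKM (-0.50). At day 7 Il6 was at 0.239 RPKM in the standard library and listed at 0 in TELP N9. Acta1, skeletal muscle actin, was at 11.9 RPKM in standard and 36.5 RPKM in TELP (1.54), and it was the only 1 of 10 muscle markers kept, with Myod1 at 0 and 0.0267 RPKM and Ckm listed at 0 in both libraries. The whole muscle list summed to 13.2 RPKM in standard and 37.5 RPKM in TELP, nearly all of it Acta1.

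In the remaining lists few genes passed the threshold, as was the case over all genes (1.64%). At that share 0 in a list of this size does not set its genes apart from others. None passed the threshold among 29 matrix proteases and inhibitors, 27 contractile genes, 19 immediate early genes, 17 glycolysis genes, 22 cholesterol synthesis genes or 8 Hox genes. Lox was the only 1 of 43 matrix glycoproteins and proteoglycans past it, and Canx the only 1 of 24 stress genes, both described next. Of 20 genes that host snoRNAs in their introns, 2 were higher (none with equal totals, and 1 with a filter at a mean of 5 RPKM, with quantile normalization, with equal totals over genes that are not small noncoding RNAs or without genes listed at 0): the ribosomal protein gene Rpl13a, at 171 RPKM in standard and 391 RPKM in TELP (1.19), and Snhg9, listed at 0 in standard and at 2.04 RPKM in TELP. Of the markers of other lineages, 1 of 8 endothelial, 2 of 8 osteoblast, 1 of 8 chondrocyte and 2 of 12 neural and epithelial genes were kept, and none of these passed the threshold.

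Several abundant genes were listed at 0 in 1 library. Of genes outside the small noncoding symbol classes, 7 were listed at 0 in TELP with at least 5 RPKM in standard, of which AF357399 and DQ267100 are snoRNAs, and 5 the other way round, among them the snoRNA Gm12238 and the short RNA Bc1. Lox, lysyl oxidase, which cross-links collagen, was at 750 RPKM in standard and listed at 0 in TELP. Canx, the endoplasmic reticulum chaperone calnexin, was at 168 RPKM in standard and listed at 0 in TELP, and Gspt1, a translation termination factor, at 27.8 RPKM and listed at 0. Bclaf1, a nuclear protein, was listed at 0 in standard and at 33.0 RPKM in TELP. At day 7 all 4 were above 0 in both library types: Lox at 426 RPKM in standard and 42.9 RPKM in TELP, Canx at 169 and 124 RPKM, Gspt1 at 23.7 and 18.4 RPKM, and Bclaf1 at 21.3 and 12.2 RPKM. An exact 0 beside such levels can be an estimate that failed, so no fold is given.

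In some pairs of a gene and its copy the members differed in opposite directions. Amd1, an enzyme of polyamine synthesis, was at 0.03004 RPKM in standard and 16.1 RPKM in TELP (4.05), while its copy Amd2 was at 17.4 and 0.270 RPKM (-3.85). Their sum was 17.4 RPKM in standard and 16.4 RPKM in TELP, a difference of -0.08. The pseudogenes Pisd-ps1 and Pisd-ps3 did the same, at 0.0601 and 26.3 RPKM for the first and 30.4 and 0.00416 RPKM for the second, with sums of 30.5 RPKM in standard and 26.3 RPKM in TELP (-0.21). These pairs, Rps27 with Rps27rt and Rpl26 with Gm15772 were chosen after their values were seen. Other sums still differed: Oaz1, ornithine decarboxylase antizyme, was at 73.3 RPKM in standard and 402 RPKM in TELP (2.44), its pseudogene Oaz1-ps at 103 and 25.8 RPKM (-1.95), and the sum at 176 and 428 RPKM (1.28). Of 30 gene and pseudogene pairs found by symbol, 6 had a member past the threshold, and in 5 of these the sum passed too. The 5 include Pisd with Pisd-ps3 (-1.31) and Pisd with Pisd-ps1 (1.31), which have opposite signs and pass only while the other pseudogene is left out. Pseudogenes as a class had a larger share past the threshold, 27 of 134 (20.1%: 25 higher, 2 lower), than protein-coding genes, 127 of 10699 (1.19%: 114 higher, 13 lower).

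Few of the lower genes were well expressed in both libraries. Thyn1, a nuclear protein, was at 13.1 RPKM in standard and 4.51 RPKM in TELP (-1.36). Magoh, a core protein of the exon junction complex, was at 82.6 and 41.04 RPKM, just outside the threshold at -0.99, and passed it with a pseudocount of 0.1 RPKM (-1.01) and with equal totals (-1.23). Malat1, an abundant nuclear long noncoding RNA, was at 144 RPKM in standard and 89.0 RPKM in TELP (-0.69). None of the 15 kept nuclear and imprinted long noncoding RNAs passed the threshold, which is near the 1.64% over all genes.

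A robust SD of the differences was 0.27 in genes of 1 to 2 RPKM, 0.25 at 5 to 20 RPKM and 0.35 at 100 RPKM or more. Counting error of a 2 kb transcript alone would give 0.18, 0.10 and 0.027, and the differences between 2 separately made libraries hold more than counting error. At 100 RPKM or more, 29 of 517 genes were higher and 2 lower (6.00% in either direction).

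Of the 181 small noncoding RNA models, 87 were higher in TELP by at least 1 (48.1%) and 60 were lower (33.1%), together 147 (81.2%). A model that passed the filter only through the library where it was high had to differ, so these counts are a description. Of the 87 higher models 67 were listed at 0 in standard, and of the 60 lower models 43 were listed at 0 in TELP. Of 59 models at 1 RPKM or more in both libraries, 34 differed by less than 1, and 4 of the 59 (Mir143hg, Mir22hg, Mir99ahg and Mirlet7bhg) are long host genes of miRNAs that the symbol rule takes in.

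The reads behind those values could be worked out. For models of up to 200 bases, values of one library fell on a curve against model length, as whole multiples of what 1 read is worth. The curve is that of an effective length, the number of places a fragment can start, for fragment lengths with a mean of 200 and an SD of 80 bases and no fragment below a shortest length. The mean and SD are the defaults of Cufflinks and are an assumption here; the shortest length and the depth were fitted, giving 47 bases and 14400000 reads for standard, and 34 bases and 22700000 reads for TELP. Of values worth up to 25 reads, 69 of 95 (72.6%) in standard and 88 of 119 (73.9%) in TELP were whole within 0.03 reads. The fit sought the settings that made most values whole or equal to 1 read, so these shares are no check on it. Of 7 genes of up to 200 bases outside the symbol classes, which had no part in the fit, 5 were whole in both libraries and 2, Rn4.5s and Bc1, were not. A listed 0 counts as whole, so AF357399, DQ267100 and Gm12238, each listed at 0 in 1 library, check the fit only in the other. AF357426, a snoRNA of 67 bases, came to 1 read in standard and 8 in TELP, and Gm24148, a miRNA model of 147 bases, to 1 and 9. The smallest recurring value is taken as 1 read or read pair.

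**Figure D4:**
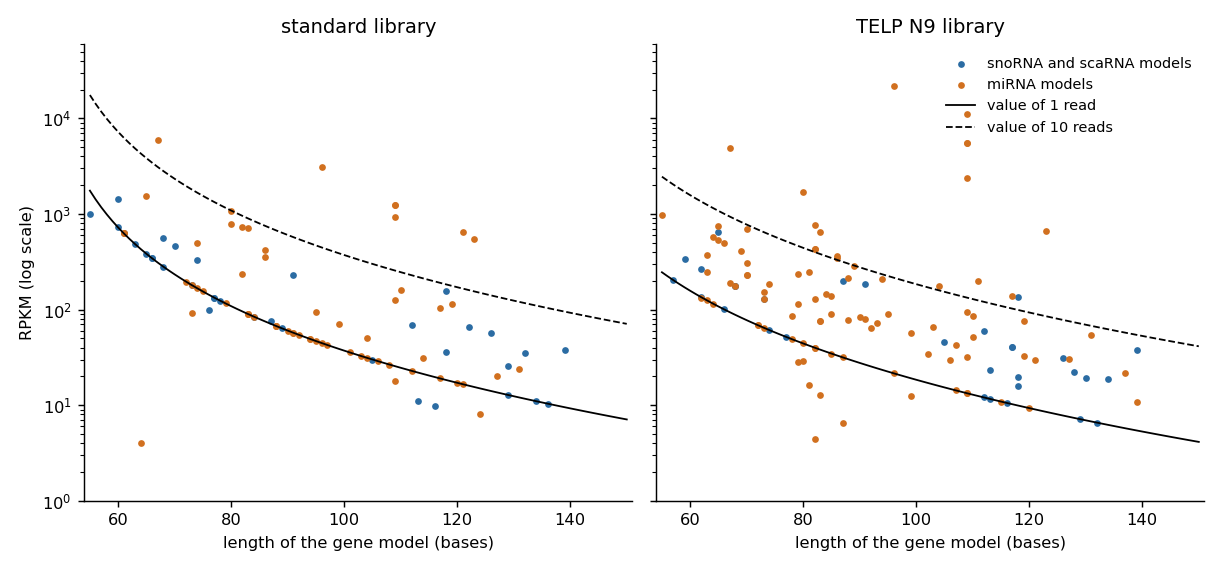
RPKM (log scale) against length of the gene model in bases for kept small noncoding RNA models at 1 RPKM or more, in the standard library (left) and the TELP N9 library (right). Blue points are snoRNA and small Cajal body RNA models, orange points miRNA models, the solid line is the value of 1 read and the dashed line that of 10 reads. Many points lie on the solid line, which at 60 bases is at 722 RPKM in standard and 157 RPKM in TELP.

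A single read of a 60 base model was thus worth 722 RPKM in standard and 157 RPKM in TELP, one of 80 bases 109 and 44.2 RPKM, and one of 140 bases 9.26 and 5.30 RPKM. Effective lengths in the 2 libraries differed by a factor of 2.92 at 60 bases, 1.28 at 100 bases and 1.005 at 500 bases. These factors come from the fitted shortest length alone, since the same mean and SD were assumed for both libraries. A difference in mean fragment length between the libraries could not show in them, and its bearing on messenger RNAs was not tested. Of 173 kept small models with a length, 115 held at most 3 reads in either library, 36 held 4 to 9 and 22 held 10 or more. Of the 145 among them past the threshold, 106 (73.1%) rested on at most 3 reads. The 95% counting interval of the ratio of RPM (reads scaled to library depth alone), from an exact binomial (Clopper-Pearson) interval, excluded 1 in 16 of the 145. Intervals cover counting error only.

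Box C/D snoRNAs gave the plainest examples. Snord91a was at 1445 RPKM in standard and listed at 0 in TELP, which is 2 reads against 0, and Snord72 was at 722 RPKM and 0, which is 1 read against 0. Snord12 had 1 read in each library, yet stood at 344 RPKM in standard and 101 RPKM in TELP, a difference of -1.77, and Snord2 had 2 reads in each, at 562 and 176 RPKM (-1.67). Over the 27 Snord models with a value, RPKM summed to 8175 in standard and 2436 in TELP, while reads summed to 31.3 and 36.3. In RPM that is 2.17 and 1.60, a ratio of 0.737 with a 95% interval of 0.444 to 1.23. Snora models, longer box H/ACA guides for pseudouridine, gave 45.6 and 81.8 reads, a ratio of 1.14 (0.781 to 1.66), with Snora81 at 12 reads in standard and 18 in TELP and Snora65 at 8.50 and 13.5. Their RPKM sums were 584 and 596. At this depth no difference between the libraries in the summed reads of either class was detectable; of single models, Snora28 had 4.14 reads in standard and 0 in TELP, with an interval of the ratio from 0 to 0.964.

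MicroRNA models were the ones with many reads. Apart from the 4 host genes, the values are those of the hairpin gene model, since a mature miRNA of about 22 bases is shorter than the shortest fragment of either library. Of the 129 kept symbols, host genes included, 71 were higher by at least 1 and 38 lower. A few held most of the reads, and their sequences are given to show what was counted. The first 4 lines are the mature miRNAs of the models with the largest read counts or the clearest deficit in TELP, from RefSeq on GRCm38.p6, 5′ to 3′, with the seed (bases 2 to 8) in capitals.
mmu-miR-682: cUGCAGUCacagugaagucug
mmu-miR-703: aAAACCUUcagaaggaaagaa
mmu-miR-692: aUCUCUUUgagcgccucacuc
mmu-miR-546: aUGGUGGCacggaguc
None of these seeds is shared with another of the set. The hairpin of Mir682, at chr13:75645046-75645141 on the plus strand, is shown with the mature miRNA in capitals.
Mir682 hairpin: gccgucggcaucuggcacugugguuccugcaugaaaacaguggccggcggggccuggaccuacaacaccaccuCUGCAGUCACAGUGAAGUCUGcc
The hairpin of Mir703, at chr5:98475556-98475664 on the minus strand, is shown in the same way.
Mir703 hairpin: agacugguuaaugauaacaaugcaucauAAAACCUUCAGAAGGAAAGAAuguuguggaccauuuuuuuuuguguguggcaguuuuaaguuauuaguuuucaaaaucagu

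Mir682 was at 3076 RPKM in standard and 21770 RPKM in TELP (2.82), which is 68.8 reads (95% Poisson interval 53.7 to 87.3) and 1010 reads (949 to 1074). In RPM it was 9.33 times higher in TELP, with an interval of 7.29 to 12.1. The letters of this hairpin recur in the coding sequence of Rpl37a, a 60S ribosomal protein gene, which was at 191 RPKM in standard and 334 RPKM in TELP (0.80). Reads of such a sequence cannot be placed with certainty, so the level of Mir682 is uncertain, and which transcript its reads came from was not tested. Mir703 was at 921 RPKM in standard and 11014 RPKM in TELP (3.58), 36 reads and 826 reads. Mir692-1 was at 17.9 RPKM and 2384 RPKM (6.98), 0.700 and 179 reads, while its copies Mir692-2 and Mir692-3 had equal values, 1227 RPKM in standard and 5527 RPKM in TELP (2.17), 48.0 and 415 reads each. The 3 Mir692 models encode one mature miRNA, so the share of reads that belongs to each is uncertain. As with Mir682, which transcripts the reads of Mir703 and the Mir692 models came from was not tested, so these levels are uncertain too.

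Mir546 went the other way, at 647 RPKM in standard and 29.7 RPKM in TELP (-4.40), 39.0 reads (27.7 to 53.3) and 3.29 reads (0.619 to 8.77). Its RPM ratio was 0.0536, with an interval of 0.00967 to 0.154. Of models with at least 10 reads in 1 library, 13 were higher and 1 was lower by at least 1 when the ratio was taken in RPM. The 13 include the Mir692 models, whose shares of reads are uncertain, and Snora78, a snoRNA. For Mir5113 (0.764 to 32.5) and Snora78 (0.678 to 29.9) the interval of the ratio includes 1. Mir3064 had a lower RPKM in TELP, 5897 in standard and 4886 in TELP (-0.27), but more reads, 19 and 52, an RPM ratio of 1.74 (1.01 to 3.12). Mir99a passed the threshold as lower, at 1534 and 754 RPKM (-1.02), on 4 reads in standard and 7 in TELP. Its RPM ratio was 1.11 (0.283 to 5.19). For both, the RPKM difference was negative while the RPM ratio was above 1, but the interval for Mir99a includes 1, so its direction is uncertain.

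Over 161 miRNA models with a value, reads summed to 414 in standard and 3364 in TELP, 28.7 and 148 RPM, a ratio of 5.17 (4.67 to 5.74). Without Mir682, Mir703 and the 3 Mir692 models the sums were 213 and 519 reads, 14.7 and 22.9 RPM, a ratio of 1.55 (1.32 to 1.83). These 5 models, left out after their values were seen, carried most of the excess. The let-7 family, regulators of differentiation in many tissues, was also looked at after its values were seen. Its 5′ arms share the seed GAGGUAG, as the mature sequences of 4 members show.
mmu-let-7a-5p: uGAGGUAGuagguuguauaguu
mmu-let-7c-5p: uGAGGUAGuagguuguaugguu
mmu-let-7f-5p: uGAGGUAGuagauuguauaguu
mmu-let-7i-5p: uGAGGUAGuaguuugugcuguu
The hairpin model Mirlet7f-1 had 0 reads in standard and 10 in TELP, Mirlet7c-1 had 1 and 9, Mirlet7i had 0 and 4, and Mirlet7a-1 had 1 and 0. Over 7 let-7 models the sums were 3 reads in standard and 30 in TELP, an RPM ratio of 6.36 with an interval of 1.98 to 32.6. Of 4 kept small Cajal body RNAs, the 2 of up to 200 bases had 0 reads in standard and 4 in TELP. The longer 2 had values in both libraries: Scarna13 was at 2.71 RPKM in standard and 2.26 RPKM in TELP, and Scarna6 at 1.21 and 3.00 RPKM.

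The list of structural noncoding RNAs had 5 kept genes, of which 2 were higher and 1 lower. Rn4.5s, the rodent 4.5S RNA, was at 5.43 RPKM in standard and 21.5 RPKM in TELP (1.81), 1.34 and 8.84 reads. Bc1, a brain cytoplasmic RNA transcribed by RNA polymerase III, was listed at 0 in standard and at 12.9 RPKM in TELP, 3.44 reads. The lower member was Rprl3, an RNase P RNA gene, at 2.09 RPKM in standard and listed at 0 in TELP. Outside that list, DQ267100 and AF357399, the snoRNAs named above, were at 214 and 49.2 RPKM in standard and listed at 0 in TELP, which is 1 read against 0 for each.

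The same comparison at day 7, from other libraries of differentiated cells, differed more. Of 10917 genes kept there that were not small noncoding RNAs, 775 were higher in TELP N9 by at least 1 (7.1%) and 1809 were lower (16.6%), together 2584 (23.7%), with a median of -0.23, an SD of 0.93 and Pearson's r of 0.865 between libraries. Of the 161 genes higher at day 0, 57 were also higher at day 7 and 11 were lower; of the 21 lower at day 0, 6 were also lower and 2 were higher. Across 11096 genes the day 0 and day 7 differences had Pearson's r of 0.271 and Spearman's rho of 0.312, a description over genes. Rps27 was at 1.93 RPKM in standard and 155 RPKM in TELP at day 7, and Romo1 at 39.7 and 387 RPKM, both in the day 0 direction. The copy Rps27rt differed by -6.36 at day 7, and the sum of Rps27 and Rps27rt by 0.43, under the threshold. Over the genes kept at day 0, the median of complex I genes was 0.40 at day 0 and 1.02 at day 7, and that of collagens -0.26 and -0.84. The ribosomal protein medians, 0.70 and 0.48 at day 0, were 0.03 and -0.03 at day 7. Genes under 2 kb had a median of 0.41 at both days, while those of 100 kb or more had -0.09 at day 0 and -0.69 at day 7. The preadipocyte and mesenchymal list, 0.13 at day 0 (-0.10 with equal totals), was at -1.15 at day 7. No difference between the days was tested, and at day 7 differences between cells and between library types cannot be told apart.

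**Figure D5:**
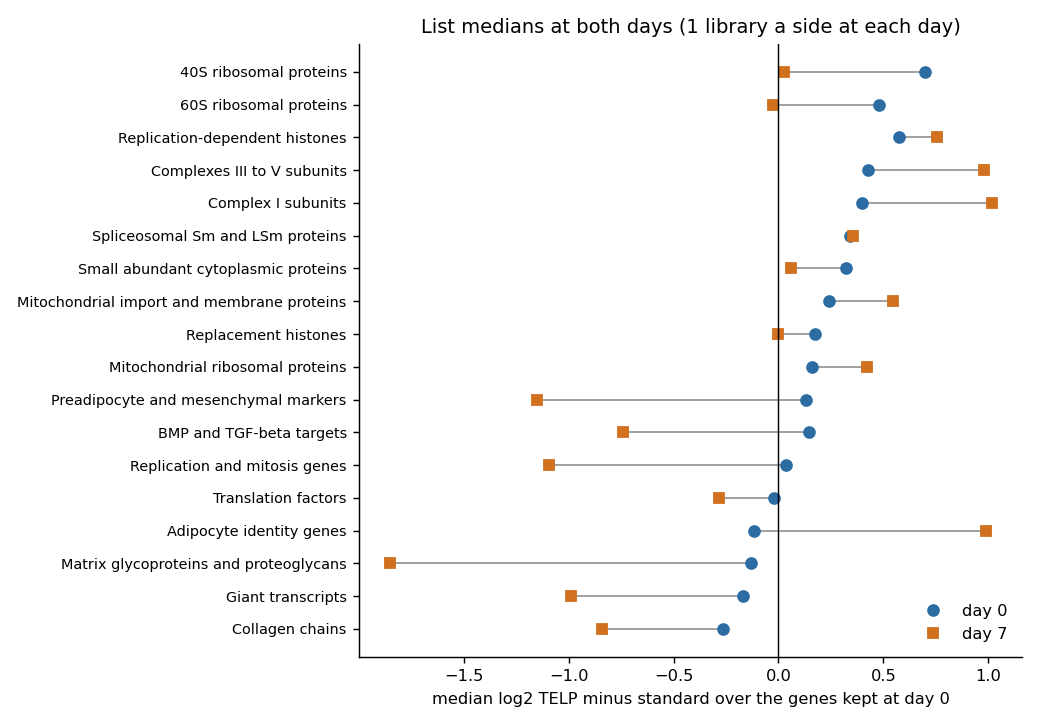
Median log2 difference, TELP minus standard, of 18 gene lists at day 0 (circles) and day 7 (squares), over the genes kept at day 0, with 1 library a side at each day. Respiratory chain lists were positive at both days and collagens and giant transcripts negative at both, while ribosomal protein medians were near 0 at day 7.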

How the data were processed

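The deposited table gives 1 RPKM value per gene symbol and RNA library, made by the authors; Bowtie2, TopHat, Cufflinks and the mm9 build are named per the submitters' processing notes. No version, annotation, strand setting or read total is given in the sources used here. Columns were matched to samples by title, and 23901 of 24029 symbols (99.5%) to RefSeq (GRCm38.p6), used for names, biotypes, spans and miRNA sequences only. A gene stayed in when its day 0 libraries averaged 1 RPKM or more, and genes were compared as log2(RPKM + 1) differences, with no test because each group is 1 library. Reads behind models of up to 200 bases came from an effective-length fit. The fit was also run on data simulated with the same formula, mean and SD, which cannot check that formula or those settings. Fragment mean and SD were assumed. The genes named were the 12 highest and 12 lowest at 1 RPKM or more in both libraries, the 5 highest and 5 lowest of the rest, the 2 largest past the threshold in each direction of each of 38 lists, 9 chosen genes, the 8 highest and 8 lowest small RNAs and the 4 highest and 4 lowest of those at 1 RPKM in both; a few were named from these for space, and other genes named were chosen after their values were seen. The members and lists were chosen with earlier results of these data known. Python 3.11.15, pandas 2.3.3, numpy 2.4.6, scipy 1.17.1 and matplotlib 3.10.9 were used.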

Additional observations from a re-analysis of the deposited data

Results flagged for a closer look

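In 13 named genes the TELP library was higher at one day and lower at the other by at least 1. None of these differences between days was tested. Gm6525 was at 1.89 at day 0 and -1.46 at day 7, Gm24148 at 2.24 and -3.13, and Pisd-ps1 at 4.68 and -3.74. The snoRNA AF357426 was at 1.27 and -8.30. Rprl3, an RNase P RNA gene, was at -1.63 at day 0 and 2.22 at day 7. Among small noncoding RNA models, Mir1905 was at 8.61 and -6.05, Mir682 at 2.82 and -1.25, Mir692-1 at 6.98 and -3.81, Mir692-2 and Mir692-3 both at 2.17 and -1.89, Mirlet7c-1 at 2.07 and -5.67, Mirlet7i at 7.13 and -6.35, and Snora17 at -2.25 and 1.36. Reads at day 0 were 0.00104 in standard and 10.7 in TELP for Mir1905, 3 and 1 for Snora17, and 1 and 9 for Gm24148. Reads at day 7 were not worked out. AF357426, Gm24148, Mir1905, Mir692-1, Mirlet7c-1 and Mirlet7i were listed at 0 in TELP at day 7. Their day 7 standard levels were near or below the value of 1 read in the day 0 standard library. AF357426 was at 315 RPKM against 310 RPKM for 1 read, and Mirlet7i at 80.8 against 79.6 RPKM. The day 7 differences of these models may rest on about 1 read, so their sizes are uncertain.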

How the results depend on the processing

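The count of higher genes, 161, stayed within 1.5 times of itself under each alternative run except equal totals (83). The count of lower genes, 21, was 35 with a pseudocount of 0.1 RPKM, 11 with a filter at a mean of 5 RPKM, 34 with equal totals and 13 without genes listed at 0. Genes past the threshold in the same direction at both days numbered 63, but 35 with equal totals and 41 with equal totals over genes that are not small noncoding RNAs. Small RNA models, 87 higher and 60 lower, came to 20 and 17 without those listed at 0, and to 13 and 1 as RPM (reads scaled to depth) with at least 10 reads in 1 library, an alternative chosen after seeing the data. With equal totals Ndufc1 (0.96), Ndufs6 (0.97), Mrpl14 (0.83), Hist2h2ac (0.97) and Rpl13a (0.95) were under the threshold. The contrast in median between genes under 2 kb and of 100 kb or more, 0.49, was 0.15 with no filter and 0.48 to 0.57 in the other alternatives. No paired analysis was possible because each RNA group has 1 library; leaving a library out was not possible either. Protein length was not run, since no protein table was used here, and a check on promoter base composition is void because only 8221 of 10699 genes, under 80%, had a promoter. Depth limits most the small RNA models; of a 500 base transcript, 1 RPKM stood for 4.27 reads in standard and 6.74 in TELP.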
